A study of Mus musculus with 6 samples.

Results

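Asns, which encodes asparagine synthetase, was examined together with 9 other genes of the amino acid response driven by the transcription factor ATF4: Atf4 itself, Ddit3, Trib3, Chac1, Sesn2, Psat1, Phgdh, Shmt2 and Mthfd2. All probe sets whose only platform gene symbol was one of these 10 were taken, which gave 24 probe sets; the 10 genes are among 18193 genes on the array with a single symbol. The group was chosen by pathway and partly selected on the measured difference of Asns, which tended to be higher in the deficient arrays, so the control against deficient values of these genes are given as a description and without a test.

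Total RNA of intestinal epithelial cell preparations from 6 mice of mixed 129/SV and C57BL/6 background was hybridised to Affymetrix arrays, with 1 array per mouse. Every mouse carried floxed Pggt-Iβ (Pggt1b, the beta subunit of GGTase-I, a protein prenylation enzyme) and every mouse received 1 mg of tamoxifen on 3 days in a row, with cells collected on day 6 counted from the first dose. The 3 control mice were VillincreERT2 negative. The 3 deficient mice were VillincreERT2 positive, a tamoxifen-inducible recombinase under an intestinal epithelial promoter, so effects of the recombinase and of the deletion cannot be told apart. The sources used here name neither the age nor the intestinal segment. Pggt1b RNA itself did not mark the groups: mean log2 levels were 9.39 ± 0.14 for controls and 9.16 ± 0.52 for deficient arrays (SD, n = 3 each), so the directions given here depend on the labels. All 10 epithelial markers, among them Epcam, Cdh1 and Vil1, were above the filter level of 5 (log2) described with the methods. Correlations between arrays over the 8893 genes tested were 0.953 to 0.980 within groups and 0.903 to 0.969 between groups.

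Cells short of an amino acid accumulate uncharged tRNA, which activates the kinase GCN2; GCN2 phosphorylates the initiation factor eIF2 alpha, general translation slows and translation of the Atf4 message goes up. Other kinases, such as PERK in the endoplasmic reticulum, feed into the same step. ATF4 protein then binds composite C/EBP-ATF elements and switches on genes for amino acid synthesis, uptake and tRNA charging, and with longer stress also Ddit3 (CHOP), Trib3 and Chac1. Because ATF4 is controlled to a large part by translation, its RNA level is not a measure of its activity. In the intestine the epithelium turns over rapidly, and dividing crypt cells draw on serine and one-carbon metabolism for nucleotide synthesis.

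Asns stood higher on every deficient array than on any control. Its log2 level was 7.97, 7.27 and 7.79 in control replicates 1, 2 and 3, and 8.69, 9.20 and 8.66 in deficient replicates 1, 2 and 3. The lowest deficient array lay 0.69 above the highest control. The group means were 7.67 ± 0.36 and 8.85 ± 0.30 (SD, n = 3 each), a difference of 1.17 ± 0.25 (SE of the fit) on the log2 scale or 2.25-fold, which placed Asns at the 98.7th percentile of the differences of all genes tested. The second probe set of Asns gave the same picture, with 7.86, 7.14 and 7.52 in controls, 8.54, 8.85 and 8.72 in deficient arrays and a difference of 1.20. In a bulk preparation, more cells that express a gene and more RNA per cell cannot be told apart.

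The RefSeq promoters of the 10 genes (assembly GRCm38.p6, 250 bases before to 50 after the annotated start) were searched on both strands for the core of the composite C/EBP-ATF element, TGATGNAA. All 10 genes had a promoter in the table, Psat1 having more than one. The Asns promoter is shown because Asns is the gene the description starts from and because its match sits next to the start: the 250 bases upstream lie on the minus strand at chr6:7693210-7693459, and the capitals mark the match TGATGAAA at bases -23 to -16, where -1 is the last base before the start. The other matches were TTGCATCA in Chac1 at bases -193 to -186 (plus strand gene, window chr2:119351038-119351067) and TTACATCA in Trib3 at bases 15 to 22 after the start (minus strand gene, window chr2:152344028-152344057), both on the strand opposite to the gene.
Asns, 250 bases upstream: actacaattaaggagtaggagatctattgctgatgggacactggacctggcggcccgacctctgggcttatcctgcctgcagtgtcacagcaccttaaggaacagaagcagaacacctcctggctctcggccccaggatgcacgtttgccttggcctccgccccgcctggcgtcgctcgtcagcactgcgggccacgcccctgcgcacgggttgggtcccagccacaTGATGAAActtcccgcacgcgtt
Chac1, 30 bases around the match: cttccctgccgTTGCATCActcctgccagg
Trib3, 30 bases around the match: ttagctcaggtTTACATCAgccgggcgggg
The motif was thus found in 3 of the 10 genes, while 3.97% of all 32851 promoters of this length hold it. The cAMP response element TGACGTCA, which 1.79% of promoters hold, had no match in the promoters of the 10 genes, so no matches overlapped. Of the 3 genes with a match, Asns and Chac1 had higher means in the deficient arrays and Trib3 a lower one; the 4 other enzymes described next had higher means and no match within this window.

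**Figure D1:**
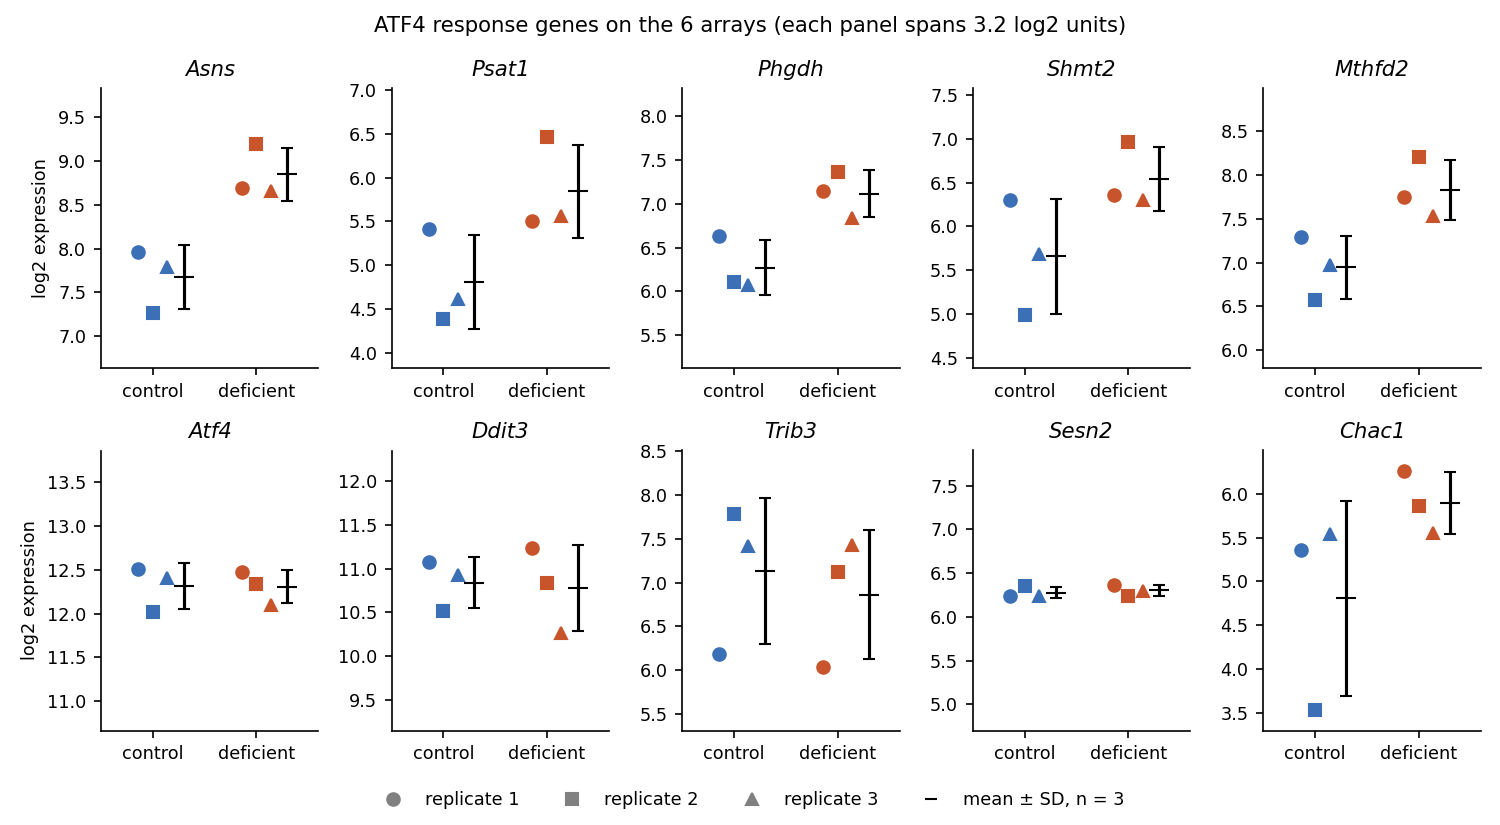
Log2 expression of the 10 genes on the 6 arrays, with 1 point per mouse (circles, squares and triangles for replicates 1, 2 and 3; control in blue, deficient in orange) and the mean ± SD of each group in black. All deficient arrays lie above all controls for Asns, Psat1, Phgdh, Shmt2, Mthfd2 and Chac1, by as little as 0.0028 for Shmt2 and 0.0138 for Chac1, while Atf4, Ddit3, Trib3 and Sesn2 overlap.

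Serine synthesis starts with Phgdh, which oxidises 3-phosphoglycerate, and Psat1, which carries out the transamination that follows. Phgdh read 6.63, 6.11 and 6.07 in controls and 7.15, 7.37 and 6.83 in deficient replicates 1, 2 and 3, a difference of 0.85 ± 0.23 (SE) with no overlap. Psat1 read 5.41, 4.38 and 4.62 in controls and 5.51, 6.46 and 5.56 in deficient arrays. Its groups were only 0.0957 apart, deficient replicate 2 standing far above the other deficient arrays, and the difference was 1.04 ± 0.36 (SE). Since 2 controls of Psat1 lay below 5, the fold is given as at least 1.63-fold, with values at or below 5 raised to 5.

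The mitochondrial one-carbon enzymes had a similar profile. Shmt2, which splits serine into glycine and a one-carbon unit, read 6.30, 4.99 and 5.69 in controls and 6.36, 6.97 and 6.31 in deficient arrays. Control replicate 1 and deficient replicate 3 practically coincided, and without control replicate 2 the difference of 0.88 ± 0.36 (SE) became 0.55. Mthfd2, the dehydrogenase and cyclohydrolase that uses these units, read 7.29, 6.58 and 6.97 in controls and 7.75, 8.21 and 7.54 in deficient arrays, a difference of 0.88 ± 0.26 (SE) with 0.24 between the groups. Taken as a set by function after the values were seen, the 5 enzymes Asns, Psat1, Phgdh, Shmt2 and Mthfd2 had differences from 0.85 to 1.17 with a median of 0.88, against a median of -0.04 over all genes tested.

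The transcription factors and stress effectors, other than Chac1, had differences nearer to 0. Atf4 read 12.51, 12.01 and 12.40 in controls and 12.47, 12.34 and 12.10 in deficient arrays, a difference of -0.01 ± 0.20 (SE). Ddit3, the pro-apoptotic factor CHOP, read 11.08, 10.51 and 10.93 in controls and 11.24, 10.84 and 10.26 in deficient arrays, a difference of -0.06 ± 0.29 (SE). The groups overlapped for both genes, and Ddit3 spread more widely in the deficient arrays (SD 0.49 against 0.29 in controls).

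Trib3, a pseudokinase that damps ATF4 signalling, read 6.19, 7.79 and 7.42 in controls and 6.03, 7.12 and 7.43 in deficient arrays, with a difference of -0.27 ± 0.51 (SE). Replicate 1 was the low array in both groups, and the difference ran from -0.74 to 0.15 as single arrays were left out. Sesn2, a leucine sensor that restrains mTORC1, varied least of the 10, from 6.24 to 6.37 over all arrays, with a difference of 0.03 ± 0.15 (SE). Chac1, which degrades glutathione, read 5.35, 3.53 and 5.54 in controls and 6.26, 5.86 and 5.56 in deficient arrays. Its difference of 1.09 ± 0.53 (SE), at least 1.51-fold with values at or below 5 raised to 5, rested on control replicate 2 and was 0.45 without that array.

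In the fit over all 8893 genes with limma and Benjamini-Hochberg adjustment, 0 of the 10 genes passed an adjusted p of 0.05, where 2.09% of all genes tested passed, 0.112% in the higher and 1.98% in the lower direction. At an unadjusted p under 0.05, 5 of the 10 genes, the 5 enzymes, were higher, where 5.60% of all genes were. The deficient arrays all lay above the controls for 6 of the 10, where this held for 9.00% of all genes. The choice of the group used this contrast, so nothing is read from these counts.

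Probe sets of one gene differed where the signal was low, and in places at high signal. The bright probe sets of Atf4 gave differences of -0.01 (the one used) and -0.31. Of the 24 probe sets, 16 were above 5 on at least 3 arrays and 5 were at or below 5 on all 6. For Phgdh, the brighter second probe set differed by 0.75 between the groups, while those that stayed at or below 5 differed by 0.30 and 0.21. For Shmt2 the 3 dimmer probe sets differed by 0.33, 0.07 and 0.04. The dimmer probe sets of Psat1 and Mthfd2 differed by 1.40 and 0.79. The second bright probe set of Atf4 differed by -0.31, that of Ddit3 by -0.10, that of Trib3 by -0.39 and that of Sesn2 by 0.12, each with overlapping groups. All probe sets of Phgdh, Psat1 and Shmt2 that were above 5 on at least 3 arrays are of a design that can match several transcripts, and 2 further Phgdh probe sets that also name a pseudogene-like locus (Gm6756 or Gm8096) were not used.

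**Figure D2:**
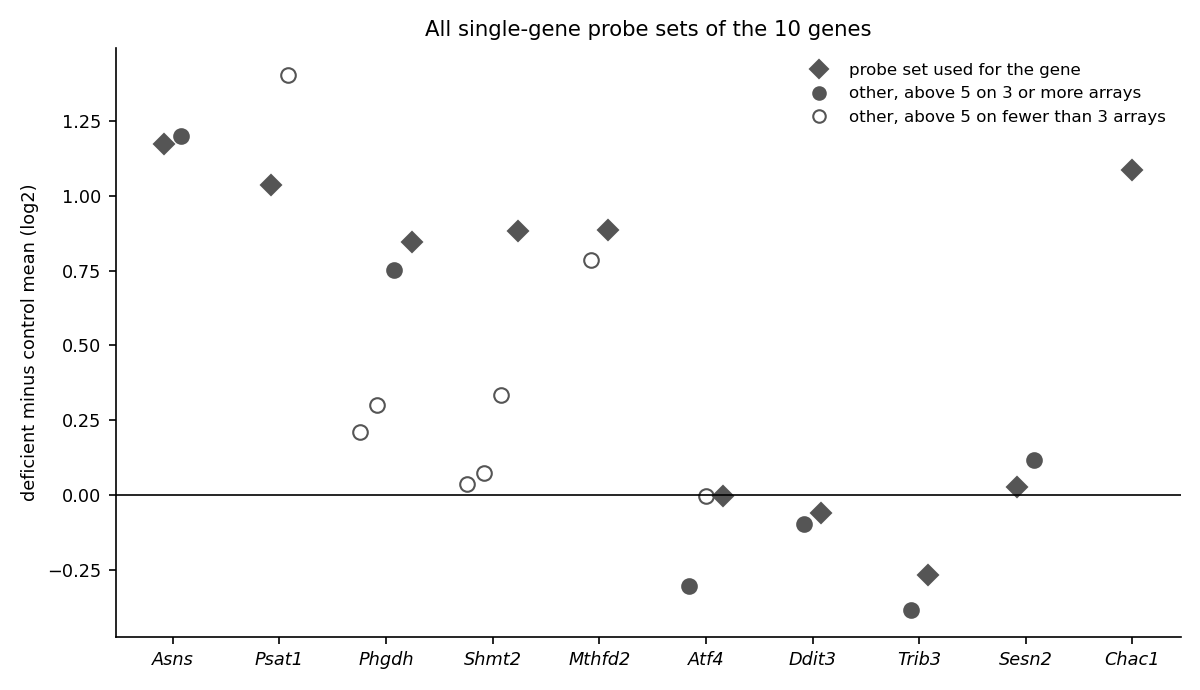
Difference between deficient and control means (log2) for each of the 24 probe sets with a single gene symbol; diamonds are the probe sets used for the genes, and open circles are probe sets above 5 on fewer than 3 arrays. Both Asns probe sets lie at 1.17 to 1.20, while all probe sets of Ddit3 and Trib3 lie below 0.

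The genes whose profile over the 6 arrays was nearest to that of Asns were found by the root mean square difference between profiles centred on each gene's mean. They were Prep (prolyl endopeptidase, 0.15 log2 units), Gm15706 (a predicted gene, 0.16), Zdhhc2 (a protein palmitoyltransferase, 0.16), Nasp (a histone chaperone, 0.16) and Mthfd2 (0.16). Mthfd2 was thus the nearest of the 9 other genes, ranking 5 among 8892 genes compared. Psat1 ranked 35, Shmt2 39 and Phgdh 52. Chac1 ranked 1439, Atf4 2801, Sesn2 3436, Ddit3 4131 and Trib3 8008. This likeness includes the group difference that led to the choice of Asns.

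A likeness that does not use the group difference is the order of arrays within a group. Control replicate 2 was the lowest control for 4 of the 5 enzymes (all but Phgdh), for 3 of the 5 other genes (Atf4, Ddit3 and Chac1) and for 44.9% of all genes tested. Deficient replicate 2 was the highest deficient array for 5 of the 5 enzymes, 0 of the 5 others and 33.9% of all genes. Both held together for 4 of the 5 enzymes, for 0 of the 5 others and for 21.2% of all genes. The enzymes were grouped after their values were seen, so this is a description. These orders belong to the probe set used for each gene. On the second bright probe sets of Ddit3 and Sesn2, deficient replicate 2 was the highest deficient array (8.78 and 6.15). Control replicate 2 was the highest control on that of Atf4 (12.22) and not the lowest on that of Ddit3. The dimmer Mthfd2 probe set was highest in deficient replicate 1 (5.45). On the second probe sets of Asns, Phgdh, Psat1 and Trib3 the lowest control and highest deficient array were unchanged.

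As list averages, markers of dividing crypt cells and the enzymes were lowest and highest on the same arrays. Single markers departed from this: Mcm2 and Mcm3 were highest in control replicate 1, Rrm2 and Cdc6 in deficient replicate 1, and Rrm2 was lowest in control replicate 3. The average of the aminoacyl-tRNA synthetase list given below was lowest and highest on those same arrays as well, control replicate 2 (-0.24) and deficient replicate 2 (0.49). Averaged over the 5 enzymes and set relative to the control mean, log2 levels were 0.45, -0.41 and -0.04 in control replicates 1, 2 and 3 and 0.82, 1.37 and 0.71 in the deficient replicates. The 15 proliferation markers tested, such as Mki67, Top2a and Mcm2, averaged 0.89, -0.82 and -0.07 in controls and 0.86, 1.24 and 0.71 in deficient arrays. In the deficient arrays all 15 means were higher, as were those of 45.4% of all genes, with a median difference of 0.96, and 0 passed with limma over all genes (5 at an unadjusted p under 0.05). Control replicate 1 lay among the deficient arrays for the proliferation markers. It stood close to the lowest deficient array for Shmt2 (0.643 against 0.646) and Psat1 (0.607 against 0.703), and further below it for Asns (0.292 against 0.985).

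Markers of other cell types also differed between the groups. The 12 T cell and intraepithelial lymphocyte markers tested averaged between -0.05 and 0.09 in controls. In deficient replicates 1, 2 and 3 they averaged -4.08, -3.29 and -2.61, and 10 of 12 passed, all lower. Of all genes tested, 1.98% passed in that direction. Cd247 and Cd2 were at or below 5 on all arrays. The 10 myeloid markers averaged between -0.25 and 0.39 in controls and between -1.77 and -0.99 in deficient arrays, with 4 lower calls. These were Tyrobp, Fcer1g, Adgre1 and Itgax, with differences from -2.95 to -1.81. All 10 means were lower, but Lyz2, Cd14, Csf1r and C1qa differed by -0.41, -0.31, -0.64 and -0.88 with overlapping groups. Cd68, Itgam and C1qc were at or below 5 on all arrays. The 5 stromal and endothelial markers tested averaged between -0.30 and 0.50 in controls and at -0.46 or below in deficient arrays, with 0 passing. Col1a2, Col3a1 and Vim were lower with no overlap, as were 16.7% of all genes tested, while Pdgfrb and Acta2 differed by 0.41 and 0.06. Col1a1, Pecam1, Cdh5 and Des were at or below 5 throughout. The 3 B and plasma cell markers tested averaged between -0.10 and 0.12 in controls and between -0.44 and 0.43 in deficient arrays. That average joins opposite directions: Jchain differed by -1.62 and Blnk by 1.31, both with no overlap, and Sdc1 by 0.13. Cd79a, Cd79b, Mzb1 and Pou2af1 were at or below 5 throughout. The 10 epithelial markers averaged between -0.09 and 0.10 in controls and between 0.10 and 0.43 in deficient arrays, and the 10 mature enterocyte markers between -0.32 and 0.21 in controls and between -1.04 and -0.17 in deficient arrays. The mature enterocyte markers went both ways. Alpi, Apoa1 and Apoa4 differed by 0.12, 0.17 and 0.10, and the 7 others had lower means, from -1.98 for Slc2a2 to -0.23 for Fabp1. Averages of segment markers set control replicate 2 apart. The 8 ileum markers averaged -1.03 there against 0.42 and 0.61 in the other controls, and the 6 proximal markers 0.91 against -0.52 and -0.40. In the deficient arrays these lists ran from -0.11 to 0.42 and from -0.19 to 0.67. The proximal average joins opposite directions: Cybrd1 differed by 3.21 and Adh6a by -1.30, both with no overlap, while Gata4, Onecut2, Slc40a1 and Pdx1 overlapped. Within the ileum list, Cubn and Muc13 in control replicate 2 lay between the other controls. Cubn was the 1 ileum marker that passed, with a difference of -1.25 (limma adjusted p = 0.0237), and Muc13 differed by 0.41 with no overlap. The part of these cell types and segments in the levels of the 10 genes was not tested.

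**Figure D3:**
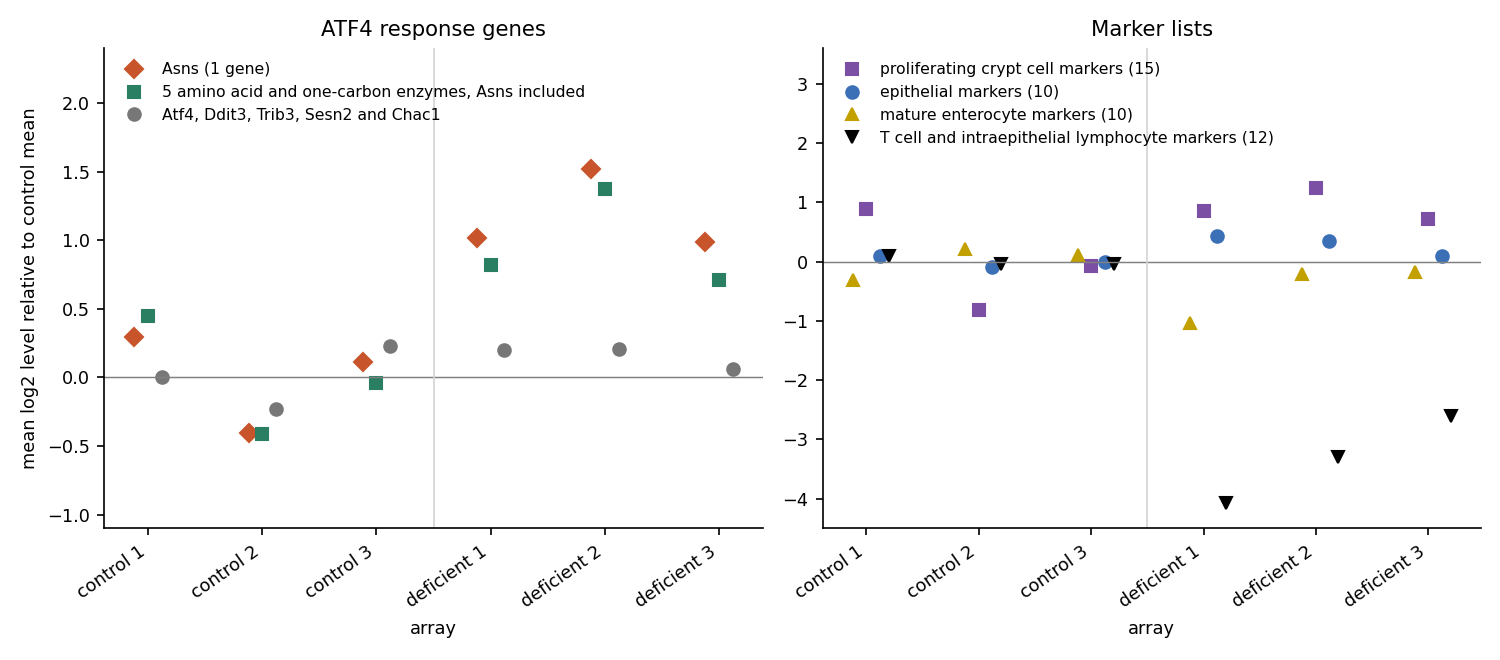
Mean log2 level of gene sets on each array relative to the control mean of each gene, with Asns, the 5 enzymes and the 5 other genes on the left and marker lists on the right (number of genes in brackets; the vertical scales differ). The averages of the 5 enzymes and of the proliferation markers are both lowest in control replicate 2 and highest in deficient replicate 2. The lymphocyte markers stand at -4.08 in deficient replicate 1.

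Beyond the 10 genes, 8 lists of ATF4 pathway genes held 102 genes tested, of which 1 passed over all genes (0.98%, against 2.09% of all genes) and 56 had higher means in the deficient arrays. Over all genes tested 45.4% had higher means, and 16.9% had an unadjusted p under 0.05 in either direction; the counts of each list below stand beside these shares. The gene that passed was Cebpb, a C/EBP factor that pairs with ATF4 on composite elements. Cebpb read 12.35, 12.48 and 12.13 in controls and 11.12, 11.41 and 11.44 in deficient arrays, and so fell by 0.99 ± 0.18 (SE) on the log2 scale or 1.99-fold, with a limma adjusted p of 0.0421. Its second probe set differed by -1.53. Cebpb failed in each of the 6 fits that left out 1 array, with limma adjusted p from 0.0714 to 0.144, and also with arrays centred on their medians (0.0667), with no filter (0.0839) and with the replicate block (0.140). The averages of the lymphocyte and myeloid markers given above were lower on the same arrays. The part of either cell type in the Cebpb value was not tested.

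Upstream of ATF4, 0 of the 11 kinase, phosphatase and eIF2B genes tested passed with limma (2 at an unadjusted p under 0.05) and the median difference was -0.01. Eif2ak4, which encodes GCN2, was at or below 5 on all arrays. Eif2ak3, which encodes PERK, read 8.62, 8.33 and 8.95 in controls and 10.36, 9.30 and 8.96 in deficient arrays, and its difference of 0.91 was 0.50 without deficient replicate 1. Eif2b1, a subunit of the exchange factor that phosphorylated eIF2 inhibits, differed by 0.93 (0.58 without deficient replicate 2).

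Among the 17 bZIP and feedback genes tested beside ATF4 itself, 6 had higher means and the median was -0.09. Named here after their values were seen, Ddit4, an mTORC1 inhibitor, and Atf5, a relative of ATF4, differed by 1.38 and 0.99 with no overlap between the groups, at limma adjusted p of 0.195 and 0.163. Atf3, another stress-induced factor, differed by -0.61 with overlapping groups. Known ATF4 response genes of this list thus stood on both sides of 0.

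Most tested genes of tRNA charging and amino acid supply had higher means in the deficient arrays, though 0 passed. Of 19 cytosolic aminoacyl-tRNA synthetase and tRNA export genes tested, 16 had higher means, with a median of 0.33, and 0 passed with limma (3 at an unadjusted p under 0.05, all higher). Gars and Cars, which charge tRNA with glycine and cysteine, differed by 0.80 and 1.04. Of the 8 amino acid transporter genes tested, 6 had higher means, with a median of 0.42, and 0 passed with limma (4 at an unadjusted p under 0.05, 3 of them higher). Slc1a4, a transporter of alanine, serine and cysteine, differed by 0.66, and Slc3a2, the heavy chain shared by several exchangers, by -0.85 (-0.55 without deficient replicate 1). Slc7a11 and Slc7a5, light chains that pair with it, were at or below 5 on all arrays, as were Slc7a3 and Slc43a1.

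The remaining serine, glycine and folate enzymes lay around 0: 5 of 10 had higher means, the median was 0.01, and 0 passed with limma (1 at an unadjusted p under 0.05). That gene was Mthfd1l, the mitochondrial formate-producing enzyme after Mthfd2, which read 5.17, 4.98 and 4.44 in controls and 6.11, 6.20 and 5.61 in deficient arrays, a difference of 1.11 ± 0.26 (SE, limma adjusted p = 0.112) with no overlap. Aldh1l1, a cytosolic enzyme that consumes one-carbon units, differed by -0.87 (-0.55 without deficient replicate 1).

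Of 11 genes for aspartate, glutamine, proline and alanine metabolism, 3 had higher means, the median was -0.38, and 0 passed with limma (3 at an unadjusted p under 0.05, all lower). Aldh18a1, the first enzyme of proline synthesis from glutamate, differed by -1.04, and its 5 probe sets all differed in that direction, from -1.23 to -0.79. Aspg, an asparaginase, which breaks down the product of Asns, read 6.69, 6.36 and 6.82 in controls and 6.36, 5.31 and 5.70 in deficient arrays, a difference of -0.83 ± 0.29 (SE, limma adjusted p = 0.234) with the groups touching.

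Of 9 secreted and metabolic stress genes, 0 passed with limma (2 at an unadjusted p under 0.05) and the median was -0.06. Eif4ebp1, an ATF4 target that represses cap-dependent translation, read 8.32, 9.06 and 8.49 in controls and 11.02, 10.04 and 9.70 in deficient arrays, a difference of 1.63 ± 0.37 (SE, limma adjusted p = 0.101) with no overlap. Its second bright probe set differed by 1.54. Map1lc3b, an autophagy gene, differed by -0.57, but its probe sets disagreed in direction, from -0.57 to 0.18. Fgf21 and Stc2 were at or below 5 on all arrays. The XBP1 and ATF6 branches of the unfolded protein response, which handle misfolded protein in the endoplasmic reticulum, had a median of 0.08 over 17 genes, with 0 passing with limma (0 at an unadjusted p under 0.05). Edem1 and Pdia6 differed by 0.37 and 0.53; the second probe set of Edem1 differed by -0.04, and Pdia6 differed by 0.23 without control replicate 2.

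**Figure D4:**
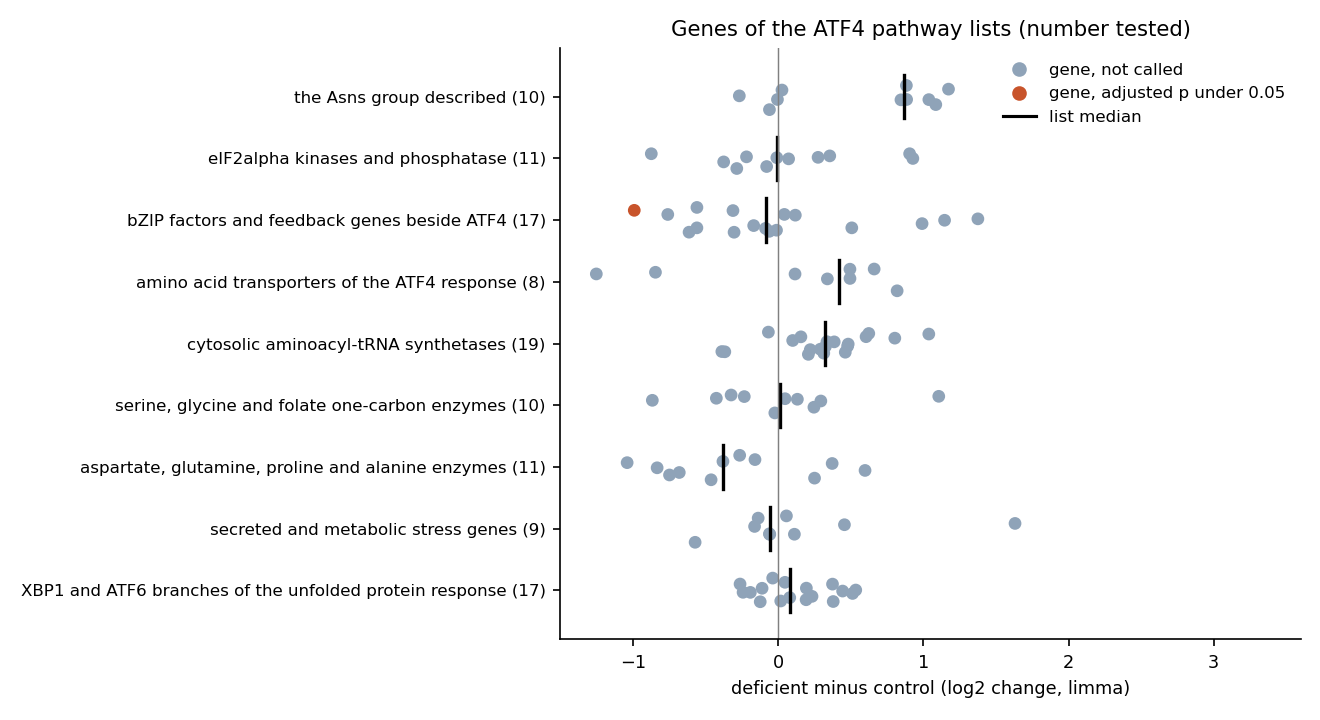
Log2 change (deficient minus control) of each tested gene in the 10-gene group and in 8 pathway lists, with the list median as a black bar and the gene with an adjusted p under 0.05, Cebpb, in orange. Medians run from -0.38 for aspartate, glutamine, proline and alanine enzymes to 0.42 for amino acid transporters, against 0.86 for the 10 genes, which were chosen partly for the value of Asns.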

How the data were processed

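The deposited table holds log2 expression values made by the authors, 1 per probe set and array. Partek 6.5 and GCRMA are listed in the submitters' processing notes, without their roles. That the scale is log2 follows from the range of the values (0.42 to 16.4). GCRMA gathers unexpressed probe sets near a floor, so small differences at low signal depend on its background model. The number of arrays limits the precision. Of 45101 probe sets, 34945 outside the 64 control probe sets had 1 gene symbol, 932 of the table had several and 9211 none. Each gene took the probe set whose mean over the 6 arrays was highest, and tests covered the 8893 genes with at least 3 arrays above 5 (log2); that level is a filter, not a measured background.

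The linear model (limma 3.58.1, R 4.3.3, lmFit then eBayes) had the group as its only term, and p-values were adjusted by Benjamini and Hochberg's method over all genes tested. Changes are deficient minus control. The fit was tested on simulated data. Labels call the arrays biological replicates, each of 1 mouse; no batch is given. Members and lists were chosen with earlier results of these data known. Besides the 10 genes, the text names, per pathway list, up to 4 called genes or otherwise the 2 with the smallest p, the 5 genes most like Asns, and Pggt1b; genes named after their values were seen are marked. Of 239 list entries, 224 had a single-symbol probe set, 2 of them after renaming through synonyms. Alternatives changed the filter, variance moderation, array weights, normalization, probe set choice and replicate block, and left out single arrays.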

Additional observations from a re-analysis of the deposited data

How the results depend on the processing

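The Asns difference of 1.17 (log2) ran from 0.97 to 1.32 over 16 alternatives, lowest without control replicate 2. The number of the 10 genes called was 0 in the 6 fits that left out 1 array and in the other alternatives with 2 exceptions: it was 1, Asns, with array weights (limma adjusted p = 0.0344) and 1, again Asns, with arrays centred on their medians (0.0462). The choice of the group used this difference of Asns, so nothing is read from these p-values. The array weights were uneven, from 0.414 for deficient replicate 1 to 3.31 for control replicate 3, with 0.579 for control replicate 2. Calls over all genes were 186, but 85 with no filter, 293 with array weights and 117 with the mean over probe sets. They ran from 93 to 239 as single arrays were left out, with 93 without control replicate 1, 104 without control replicate 3 and 101 without deficient replicate 2. Calls in the pathway lists were 1, but 4 with array weights (Cebpb, Mthfd1l, Aspg and Eif4ebp1), 0 with no filter, 0 with median centring, 0 with the replicate block and 0 in each fit without 1 array.

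The replicate numbers did not pair the arrays: deviations from group means correlated at 0.048, -0.291 and 0.002 for numbers 1, 2 and 3, and 1 of 6 arrays was nearest to its own number. With the replicate block 141 genes were called. Averaging probe sets lowered the Phgdh difference from 0.85 to 0.53, through its dim probe sets. The differences of Psat1, Phgdh, Shmt2, Mthfd2 and Chac1 stayed above 0 in every alternative that tested them, while those of Atf4, Ddit3, Trib3 and Sesn2 took both signs. Psat1, Phgdh and Shmt2 could not be tested without multi-transcript probe sets, Psat1 and Chac1 at a filter level of 6, and Shmt2 with averaged probe sets.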
